A study of Oryza sativa with 6 samples.

Results

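Among the gene models measured in young rice grains, 46 of 39217 were read in the wild type ZH11 and had almost no reads in the drw1 mutant. They were taken by a rule on the counts themselves: a rice locus identifier (38916 models have one), a mean of at least 1 CPM (counts per 1000000 of the column total) over the 3 ZH11 libraries, and at most 3 counts summed over the 3 drw1 libraries. Identifiers from LOC_Os05g26000 to LOC_Os05g27000 and from LOC_Os07g10540 to LOC_Os07g12000 were left out, which removed 5 loci that met the same limits, 1 on chromosome 5 and 4 on chromosome 7. Because the counts of both genotypes chose the members, their number, their level and their difference between genotypes are a description, and no test is given for them. Without drw1 replicate 1, 2 or 3 the limits gave 76, 74 and 75 loci, since the 3 counts then covered fewer libraries.

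ZH11 is a japonica rice cultivar and served as the wild type. The drw1 plants carried the drw1 mutation, whose allele is not given in the sources used here. Grains of both came from paddy-grown plants at 3 days after pollination, 3 libraries per genotype. The numbers of the libraries are not tied to separate plants. The p-values therefore reflect how far libraries of a genotype varied, and part of that may be technical. The mutant columns carry a prefix other than drw1 and were assigned to it because the series holds no other genotype, so every direction given for drw1 rests on that assignment.

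A grain this young is a mixture of tissues. Fertilization starts an endosperm that first divides its nuclei without walls and only later fills with starch and storage protein, beside a small embryo, and the maternal seed coat, pericarp and husk surround them. In rice locus identifiers the digits before the letter g give the chromosome, and those after it rise along the chromosome. The identifiers therefore show the order of loci, while the table holds no coordinates. Neither the reference gene table (assembly ASM3414082v1) nor the deposited table pairs identifiers of this form with names. Members are therefore called by their identifiers and no function is given. Sequences of the members were not analysed here.

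Library totals ran from 15582373 to 24147797 counts in ZH11 and from 16440923 to 17270099 in drw1. Over the 3 drw1 libraries, a floor of 3 counts corresponds to 0.0598 CPM. The tissue label was checked with loci assigned to marker lists from general knowledge and not from an annotation. The 5 endosperm starch and storage loci of the table, none at 0 in any library, summed to 634 to 657 CPM in ZH11 and to 24.7 to 30.2 CPM in drw1. The 5 loci of green tissue summed to 978 to 1097 CPM in ZH11 and to 604 to 629 CPM in drw1. The embryo locus lay at 7.64 to 8.07 CPM in ZH11 and at 6.08 to 9.49 CPM in drw1, where the genotypes overlapped. None of these 11 loci was a member. The endosperm and green lists moved in the same direction as the members, and their part in the pattern described here was not tested. In whole grains, fewer cells of a type and less RNA per cell cannot be told apart.

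The members formed the lower edge of a continuous range and not a group set apart. Among loci at 1 CPM or more in ZH11, 10 had 0 counts over drw1, 11 had 1, 11 had 2 and 14 had 3, which together are the members. Just outside the limit, 11 loci had 4 drw1 counts, 15 had 5 and 13 had 6, and each further count up to 10 held 10 to 14 loci. The number of loci thus showed no step at the limit. On the side of the ZH11 level, the lowest members were LOC_Os03g14440 at 1.01 CPM, with 17, 23 and 19 counts, and LOC_Os01g53550 at 1.02 CPM, with 16, 23 and 20 counts. Each had 3 counts over drw1. The nearest loci below the limit were LOC_Os02g19420 at 0.996 CPM with 0 drw1 counts and LOC_Os03g12760 at 0.982 CPM with 1. Close to the limit on drw1 counts, LOC_Os11g37270 had 11.7 CPM in ZH11 and 4 drw1 counts, and LOC_Os03g40440 had 10.1 CPM and 4. These are higher in ZH11 than any member and were left out by a single count.

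**Figure D1:**
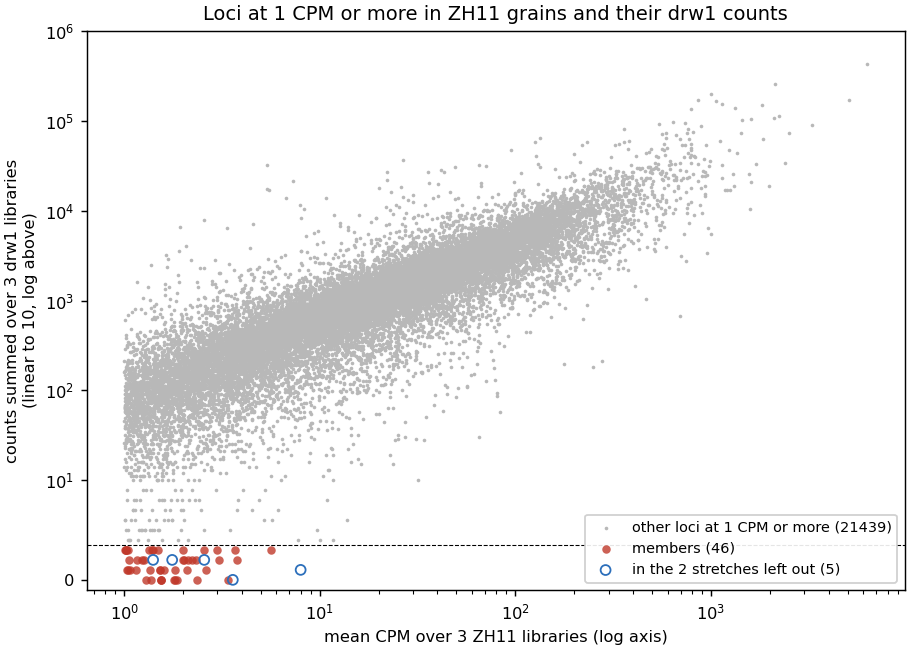
Each point is a locus at 1 CPM or more in ZH11, placed by its mean CPM over 3 ZH11 libraries (log axis) and its counts summed over 3 drw1 libraries (linear to 10, log above). The 46 members (red) lie below the dashed line, drawn just above 3 drw1 counts, and between 1.01 and 5.62 CPM, and loci follow on above the line without a gap.

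Of the 21490 loci at 1 CPM or more in ZH11, 147 were at least 16-fold lower in drw1 when drw1 counts were raised to a floor of 3, and all 46 members were among them by the rule's own limits. The 87 others outside the stretches left out had a median of 15.6 CPM in ZH11, with a highest value of 698 CPM, and a median of 29 drw1 counts. A limit on counts therefore selected lowly expressed loci from a wider set with strong falls.

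Members were expressed at low levels in ZH11. Their mean CPM ran from 1.01 to 5.62 with a median of 1.54, where the median of all loci at 1 CPM or more was 17.9 CPM. Of the 46, 31 lay under 2 CPM, 5 at 3 CPM or more and 1 at 5 CPM or more. Per kilobase of deposited length, members had a median level of 2.14 CPM per kilobase, against 10.9 for all loci at 1 CPM or more. Among the 5263 other loci within the members' CPM range the median was 2.05 on the same scale.

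LOC_Os04g41980 had the highest level. It had 120, 142 and 76 counts in ZH11 replicates 1, 2 and 3, a mean of 5.62 ± 0.65 CPM (SD, n = 3), and 0, 1 and 2 counts in drw1. It also had the highest level per length, at 15.7 CPM per kilobase over its 357 bases. LOC_Os04g13540 followed with 75, 79 and 67 counts in ZH11 (3.79 ± 0.51 CPM, SD, n = 3) and 2 counts in drw1, all in replicate 3. LOC_Os07g23944 is the longest member, with 3218 bases, and had 64, 101 and 56 counts in ZH11 (3.68 ± 0.47 CPM, SD, n = 3) against 1 count in each drw1 library. The ZH11 libraries were far above those of drw1 at each of these 3 loci, as the rule requires.

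LOC_Os05g23910 had 68, 82 and 52 counts in ZH11 and 0 in every drw1 library. At 3.45, 3.40 and 3.34 CPM its ZH11 libraries were the closest together of any member, and it had the highest level among the 10 members without a drw1 count. At the ZH11 level, 170.5 counts would fall to the 3 drw1 libraries. Set against a drw1 total of 3 counts, it was at least 56.8-fold lower.

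Levels around 3 CPM were seen in LOC_Os05g28210, with 71, 77 and 37 counts in ZH11 and 1, 0 and 1 in drw1. LOC_Os04g09390 had 64, 67 and 46 counts in ZH11 and 3 in drw1, all of them in replicate 1. LOC_Os08g29580 had 54, 58 and 42 counts in ZH11 and 1, 0 and 0 in drw1. The ratio of ZH11 to drw1 was 130 (95% counting interval 23.0 to 5167), the highest among members with drw1 counts, and 1 drw1 count leaves that ratio very imprecise.

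LOC_Os12g38900 had 50, 70 and 35 counts in ZH11 and 2, 0 and 1 in drw1. LOC_Os05g48400 had 46, 66 and 31 counts in ZH11 and 0 in drw1, at least 40.2-fold lower. LOC_Os10g29549 had 50, 58 and 32 counts in ZH11 and 2, 0 and 0 in drw1. With these, the 10 highest members reach down to 2.33 CPM, and chromosomes 4 and 5 hold 3 of the 10 each.

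The remaining members without a drw1 count had ZH11 means from 1.29 to 1.86 CPM. They were LOC_Os11g15050, LOC_Os01g39399, LOC_Os11g07180, LOC_Os07g28060, LOC_Os05g20039, LOC_Os01g35320, LOC_Os03g33384 and LOC_Os05g51400. Over all 10 members at 0, the lower bounds of the fold ran from 21.9 to 56.8 with a median of 28.1. The 36 members with 1 to 3 drw1 counts had ratios from 16.6 to 130, and the lowest bound of their 95% counting intervals was 5.41. The bounds at 0 rest on the set floor of 3 counts and are not confidence limits, and the intervals cover counting error only. Both use the counts that chose the members, so they describe the members and do not test a difference. The choice by low drw1 counts may also raise the ratios. At their ZH11 level, the members would have had 49.0 to 285 counts each over drw1.

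Together the members held 1677, 2120 and 1288 counts in the ZH11 libraries and 26, 16 and 33 in the drw1 libraries. As a sum this is 85.1, 87.8 and 82.7 CPM in ZH11 and 1.58, 0.973 and 1.91 CPM in drw1. No library supplied the difference by itself. Of the members with drw1 counts, 21 had them in 1 drw1 library, 13 in 2 and 2 in all 3. The rule itself keeps a member from having more than 3 counts in a drw1 library. The 11 members with 1 drw1 count could have it in 1 library only. The 2 members read in every drw1 library were LOC_Os07g23944 and LOC_Os01g62060, with 1 count in each.

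**Figure D2:**
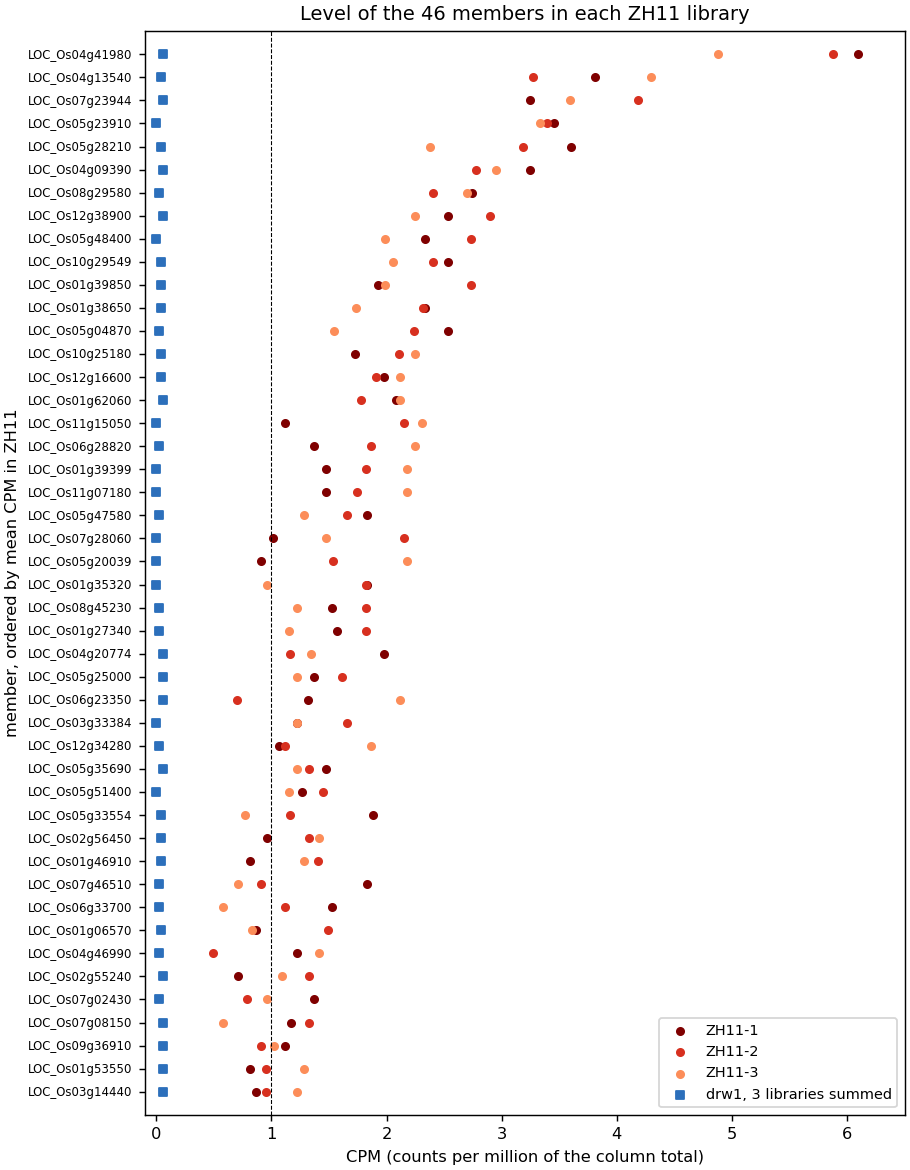
Each row is a member. Round points give its CPM in each of 3 ZH11 libraries and squares its CPM over the 3 drw1 libraries summed. The ZH11 points spread more in relative terms toward the bottom, where some libraries fall under the dashed line at 1 CPM, and the squares stay near 0.

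The spread among ZH11 libraries was not used by the rule. The coefficient of variation of a member over the 3 ZH11 libraries had a median of 19.9%, quartiles of 12.97% and 31.7% and a highest value of 52.0%. The counting error computed from each member's counts had a median of 19.1%, and the measured value was above the member's own counting error in 30 of 46 members. An SD measured over 3 libraries falls below the expected SD more often than above it. The medians of measured and computed values are therefore not directly comparable. For the 5263 other loci in the same CPM range the median was 16.7%, beside a computed counting error of 14.2%, with the same limit. Those loci lie higher, with a median of 2.65 CPM against 1.54 for the members. Of the 46 members, 30 were at 1 CPM or more in every ZH11 library. The coefficient exceeded 40% in 6, with the highest value in LOC_Os07g46510, which had 36, 22 and 11 counts in ZH11 and 1 in drw1. LOC_Os06g23350 varied almost as much, with 26, 17 and 33 counts. Different libraries were highest in these loci. Over all members, replicate 1 was the highest in 17, replicate 2 in 14 and replicate 3 in 15.

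The members were scattered over all 12 chromosomes. Chromosome 5 held 10 of them and chromosome 1 held 9, while chromosomes 4 and 7 held 5 each and the other 8 chromosomes held 1 to 3. The 10 on chromosome 5 are 21.7% of the members, and that chromosome has 8.41% of all loci at 1 CPM or more in ZH11. The share depended on the limits. It was 10.4% of 135 loci when up to 10 drw1 counts were allowed, and 12.1% of 116 loci when the ZH11 limit was 0.5 CPM. It was 4 of the 10 members at 0 drw1 counts and 26.7% of the 15 at 2 CPM.

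No members lay close together. A cluster was taken as members with no more than 10 loci of the table between them, and 0 members were in one. Of the 21444 other loci at 1 CPM or more in ZH11, 535 (2.49%) had a member that close. A count of 0 is thus near the share of loci in general. The closest pair, LOC_Os01g39399 and LOC_Os01g39850, had 24 loci between them, and the median distance of a member to the nearest other was 256 loci. LOC_Os09g36910 was alone on its chromosome. On chromosome 5 the members stood apart as well, with 46 loci between LOC_Os05g23910 and LOC_Os05g25000, 65 between LOC_Os05g47580 and LOC_Os05g48400, and more than 100 between all other neighbours, up to 820. Putting the stretches left out back added 4 loci in clusters, 0 of them members. Pairs appeared when limits were loosened: with up to 10 drw1 counts 10 of 135 loci were in clusters, and with 0.5 CPM 9 of 116. TMM scaling added a pair (2 loci), and the sets chosen without ZH11 replicate 1 or without drw1 replicate 1, 2 or 3 had 2, 4, 2 and 2 loci in clusters.

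Position within a chromosome was read from identifier order. Ranks between 33.3% and 66.7% of the loci of their chromosome were held by 24 of 46 members (52.2%). The same ranks hold 29.4% of all loci at 1 CPM or more, 30.5% of the other loci in the members' CPM range and 31.98% of those under 1000 bases. On chromosome 5 they hold 6 of 10 members, on chromosome 1 6 of 9, and on chromosome 6 3 of 3. Over the other chromosomes they hold 9 of 24 members (37.5%), with 0 of 2 on chromosome 2, 1 of 5 on chromosome 4, 2 of 5 on chromosome 7, 0 of 1 on chromosome 9, 2 of 2 on chromosome 10, 1 of 3 on chromosome 12 and 1 of 2 on each of chromosomes 3, 8 and 11. The share moved with the limits, to 39.3% of the 135 loci with up to 10 drw1 counts, 38.8% of the 116 loci at 0.5 CPM, 70.0% of the 10 members at 0 drw1 counts and 66.7% of the 15 at 2 CPM. A wider middle range, which holds 50.0% of all loci, gave a smaller contrast. It held 58.7% of the members and 46.4% of the other loci in their CPM range. Of the 87 non-members at least 16-fold lower in drw1, it held 60.9%. These shares are descriptions of order and carry no test.

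**Figure D3:**
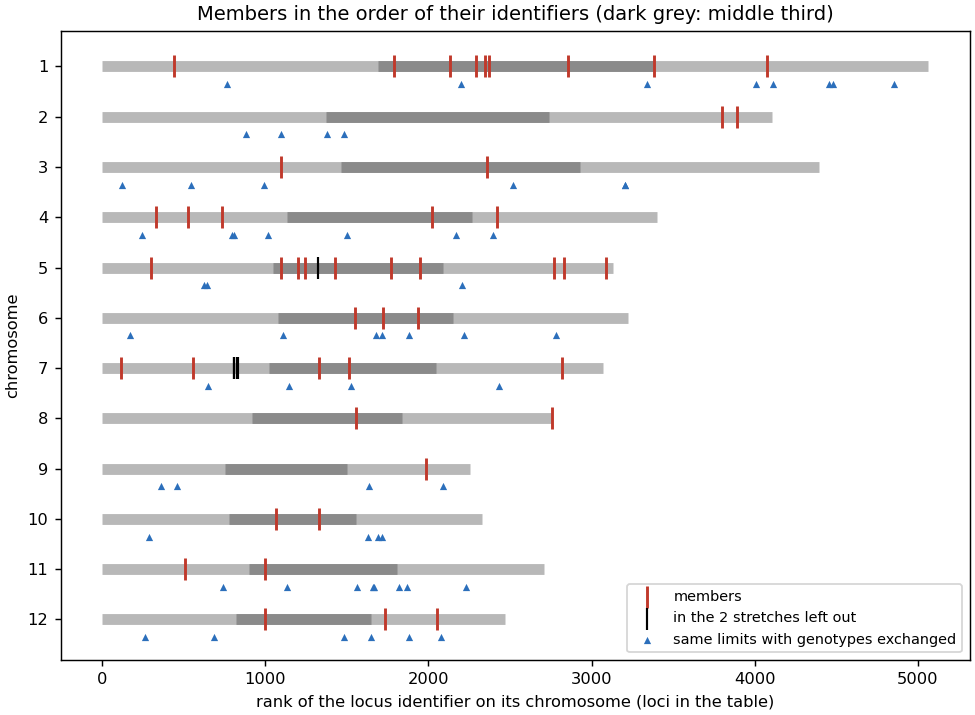
Each bar is a chromosome, with the loci of the table in the order of their identifiers and the middle ranks in dark grey. Red ticks are members, black ticks the 5 loci in the stretches left out, and blue triangles the loci that meet the same limits with the genotypes exchanged. Of the red ticks, 24 of 46 stand on dark grey, and no pair has fewer than 24 loci between them.

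The loci beside members were looked up in drw1. Of the 92 loci directly beside a member in the table, 49 were read at 1 CPM or more in drw1. In ZH11, 21490 of all 38916 loci were at that level, and the same count for drw1 is not given here. At least 1 of the neighbours was so read in drw1 for 36 members, both were for 13, and neither was for 10. The same counts were not made around other loci, so these may be no more than loci in general would show. The run of consecutive loci with at most 3 drw1 counts around a member had a median length of 2 loci including the member. It was the member alone in 17 cases, and the longest was 10 loci around LOC_Os04g13540, bounded by LOC_Os04g13480 with 1084 drw1 counts and LOC_Os04g14110 with 813. The runs held 69 other loci, and 7 of these, beside 5 members, had more than 3 counts over ZH11. The rest of the 69 had at most 3 counts in each genotype.

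LOC_Os04g41980 is a member with read loci directly on both sides. The locus before it, LOC_Os04g41970, had 2938 counts over ZH11 and 1417 over drw1 (edgeR adjusted p = 1.6e-08). The locus after it, LOC_Os04g41990, had 250 and 307 and was not called. The second tested locus before the member fell further, from 20013 counts to 2571 (edgeR adjusted p = 4.8e-15). LOC_Os05g48400, at 0 in drw1, lies between LOC_Os05g48390, which fell from 2280 counts to 899 (edgeR adjusted p = 1.2e-09), and LOC_Os05g48410. The latter rose from 2470 to 2844 (edgeR adjusted p = 0.0053). In both cases the neighbours on either side were read in every genotype.

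Within 10 loci on each side, a median of 52.5% of the loci around a member were at 1 CPM or more in ZH11, and also 52.5% in drw1. The medians were 60.0% and 60.0% for the other loci in the members' CPM range. For all loci at 1 CPM or more they were 60.0% and 65.0%. The neighbourhoods of members were thus as widely read in drw1 as in ZH11.

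Changes of the neighbours were read from a test across all genes, edgeR's quasi-likelihood test, in which 34.4% of the 23395 tested genes were lower in drw1 at an adjusted p under 0.05 and 35.7% were higher. The neighbours themselves were not used by the rule. Of the 92 nearest tested loci on either side of the members that were not members, 34 (37.0%) were lower in drw1, 28 (30.4%) were higher and 30 did not pass. Among the nearest 5 tested loci on each side, 456 in all, 157 (34.4%) were lower and 162 (35.5%) were higher. Their median log2 fold change was 0.00, and that of all tested genes was 0.03. Calls of at least 2-fold were made downward for 16 of the 92 (17.4%) and upward for 9 (9.78%), where all tested genes had 14.6% and 12.7%. Over the 456 these shares were 14.3% and 11.8%. Over the 456 loci, shares were close to those of all genes. The nearest 92 had somewhat more lower calls and fewer higher calls than all genes in both counts, a difference that was not tested. With library totals alone as scaling, 61.3% of all calls were upward in place of 51.0%, and the median of all genes moved to 0.19. Under that scaling the nearest loci were lower in 32.6% and higher in 41.3%, beside 28.0% and 44.3% of all tested genes.

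**Figure D4:**
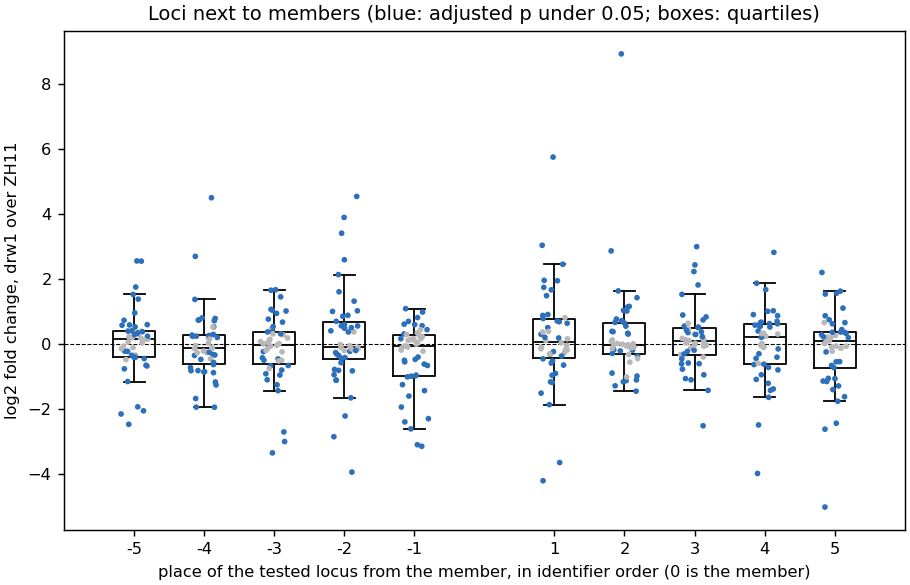
Log2 fold change (drw1 over ZH11) of the 5 nearest tested non-member loci on each side of the members, in identifier order. Points are loci, blue where the adjusted p is under 0.05, and boxes give median and quartiles with whiskers to 1.5 times the quartile range. The medians stay between -0.14 and 0.20 at every place, and single loci reach far in both directions.

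A few members had strongly changed neighbours, named here after their values were seen. LOC_Os02g55240 had 14, 32 and 17 counts in ZH11 and 0, 1 and 2 in drw1, and it sat in a short run of lowered loci. LOC_Os02g55210 had 209, 238 and 175 counts in ZH11 and 15, 12 and 30 in drw1 (log2 fold change -3.36, SE 0.22, edgeR adjusted p = 4.3e-10). LOC_Os02g55220 had 28, 36 and 24 counts in ZH11 and 3, 0 and 2 in drw1 (log2 fold change -3.96, SE 0.53, edgeR adjusted p = 3.8e-06). At either locus every ZH11 library was above every drw1 library.

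LOC_Os02g55230, directly before the member, had 161, 193 and 116 counts in ZH11 and 10, 23 and 16 in drw1 (log2 fold change -3.16, SE 0.23, edgeR adjusted p = 1.5e-09). LOC_Os02g55250, directly after it, fell less, from 589, 790 and 411 counts to 187, 220 and 172 (log2 fold change -1.52, SE 0.12, edgeR adjusted p = 3.3e-09). The run ended at LOC_Os02g55200 before it, with 3360 ZH11 counts and 3717 drw1 counts (log2 fold change 0.23, SE 0.07, edgeR adjusted p = 0.0053), and beyond that locus LOC_Os02g55190 had 1071 and 225. On the other side LOC_Os02g55270 had 39 and 4 counts and was not tested, and the next tested locus, LOC_Os02g55300, had 1301 and 1220. Whether these loci overlap or share sequence is not known here, and near-identical copies could share reads.

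Other members stood beside loci that moved the opposite way. LOC_Os01g35320 had 36, 44 and 15 counts in ZH11 and 0 in drw1, while the next locus, LOC_Os01g35330, had 128, 153 and 57 counts in ZH11 and 5375, 5682 and 6001 in drw1. That locus rose by 5.76 on the log2 scale (SE 0.12, edgeR adjusted p = 2.3e-16). The nearest tested locus on the other side, LOC_Os01g35240, fell by 2.31 (SE 0.27, edgeR adjusted p = 6.6e-07), so both directions occurred around 1 member.

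LOC_Os07g28060 had 20, 52 and 23 counts in ZH11 and 0 in drw1. With 6 loci between them, LOC_Os07g28160 had 0 counts in ZH11 and 48, 61 and 69 in drw1. With a ZH11 total of 3 counts as the floor, it was at least 70.3-fold higher in drw1. This is a locus read only in drw1 close to one read only in ZH11. It happened at 2 members, the other being LOC_Os06g28820, with 27, 45 and 35 counts in ZH11 and 0, 1 and 0 in drw1. With 4 loci between them, LOC_Os06g28720 had 2 counts over ZH11 and 52 over drw1. How many other loci lie that close to a locus read only in drw1 was not counted. The 2 members may therefore be no more than loci in general would show.

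LOC_Os05g33554, with 37, 28 and 12 counts in ZH11 and 0, 1 and 1 in drw1, lies before a far more abundant locus that fell as well. LOC_Os05g33570 had 13948, 17199 and 10820 counts in ZH11 and 1117, 979 and 1016 in drw1 (log2 fold change -3.66, SE 0.07, edgeR adjusted p = 7.7e-17). The nearest tested locus on the other side of the member rose, from 879 counts over ZH11 to 1338 over drw1 (log2 fold change 0.69, SE 0.10, edgeR adjusted p = 6.5e-06). LOC_Os03g33384, at 24, 40 and 19 counts in ZH11 and 0 in drw1, had lowered tested loci on both sides. LOC_Os03g33090 went from 3456 counts over ZH11 to 525 over drw1 and LOC_Os03g33520 from 144 to 7 (log2 fold changes -2.62 and -4.22, SE 0.11 and 0.50, edgeR adjusted p = 1.4e-12 and 9.8e-07). The second tested locus before this member and the second after it rose (log2 fold changes 1.02 and 1.15, SE 0.12 and 0.10, edgeR adjusted p = 6.3e-07 and 1.8e-08). The strand setting of the counting is not given in the sources used here, so reads of overlapping or antisense loci cannot be told apart.

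Members were short. Their deposited length had a median of 842 bases and quartiles of 517 and 1076 bases. All loci at 1 CPM or more had a median of 1682 bases, and the 5263 others in the members' CPM range had 1316 bases. Those others lie higher, with a median of 2.65 CPM against 1.54, so they are not matched on level. All 38916 loci had a median of 1201 bases. Of the 46 members, 30 (65.2%) were under 1000 bases, 10 (21.7%) were under 500 and 2 (4.35%) were over 2000, whereas the loci in the same CPM range had 34.1%, 10.96% and 23.0%. The shortest member was LOC_Os03g33384 with 165 bases, and LOC_Os07g23944 and LOC_Os11g07180, with 3218 and 3045 bases, were the only ones over 2000.

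The deposited length may not cover the same parts of every model. A coding sequence alone has a length that is a multiple of 3. This held for 36 of 46 members (78.3%) and for 58.6% of the other loci in their CPM range, and which models also hold untranslated parts is not known here. Among multiples of 3, members had a median of 725 bases and the other loci 1140. Among the rest, 10 members had a median of 928 bases and the other loci 1533. Members were the shorter in both classes. The 10 members at 0 in drw1 were shorter again, with a median of 492 bases. Stricter ZH11 limits went the other way, with 984 bases for the 15 members at 2 CPM and 931.5 for the 30 at 1 CPM in each ZH11 library.

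**Figure D5:**
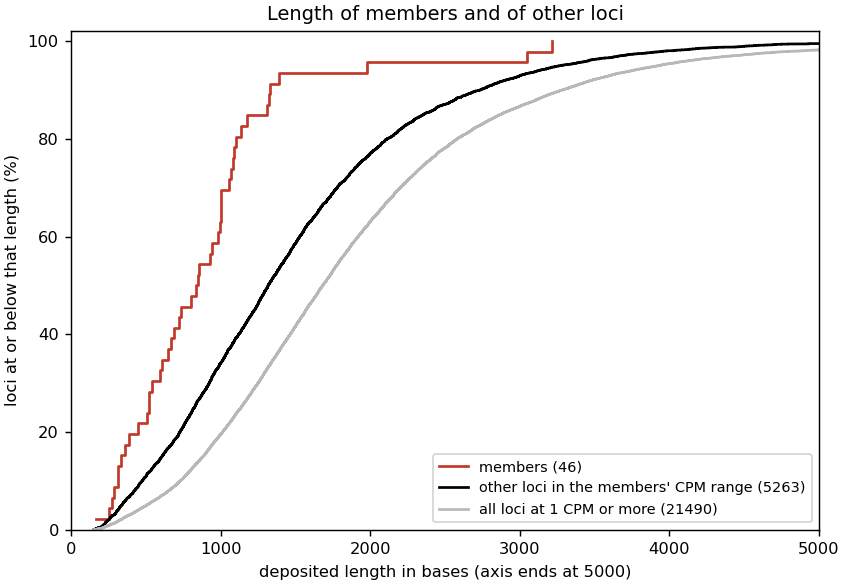
Cumulative share of loci (%) by deposited length in bases for the 46 members (red), the 5263 other loci in their CPM range (black) and all 21490 loci at 1 CPM or more in ZH11 (grey). The red line rises first, with 65.2% of members under 1000 bases against 34.1% of loci in the same CPM range, and the axis ends at 5000 bases.

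With the genotypes exchanged, the same limits gave 61 loci read in drw1 with almost no counts in ZH11. These were short too, with a median of 888 bases, and 54.1% of them were under 1000 bases. In their own genotype 11 of 61 were at 5 CPM or more, with a highest value of 179 CPM, beside 1 of 46 members. The middle ranks held 29.5% of them, and 6 of the 61 (9.84%) were in clusters by the limit used for the members. In the wider middle range the sets were close, with 55.7% of the 61 and 58.7% of the members. Chromosome 5 held 3 of the 61 and chromosome 8 held 0. These are counts side by side, and the difference between the sets was not tested.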

How the data were processed

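RNA of whole grains from ZH11 and drw1, 3 libraries each, was analysed from a table of whole-number read counts per gene model that the authors deposited without normalization, as the values show. The submitters' processing notes name fastp, HISAT2, featureCounts and DESeq. Tool versions, genome build, annotation, strandedness and the handling of multiply matching reads were not given in the sources used here. The deposited length of each model is in bases, and reads of near-identical copies may be divided or lost. CPM was computed from column totals. The members and lists were chosen with earlier results of these data known.

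Genotypes were compared over 23395 genes with edgeR 4.0.16 in R 4.3.3 (quasi-likelihood test, TMM, default filter on low counts, genotype as the only factor, two-sided, Benjamini-Hochberg adjustment, threshold 0.05), and DESeq2 1.42.0 was an alternative. The test was checked on simulated counts. Of the members, 43 passed the filter and 3 (LOC_Os04g46990, LOC_Os06g33700 and LOC_Os07g08150) did not. Standard errors are approximate, from log2 fold changes and F values. Order was taken from identifiers. Ratios of counts carry exact conditional binomial 95% intervals. Values in every library are printed for the 10 members with the highest ZH11 level, for the longest and shortest members, and for members beside loci described for their change.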

Additional observations from a re-analysis of the deposited data

How the results depend on the processing

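The number of members depended on the limits: 10 with 0 drw1 counts, 135 with up to 10, 116 at 0.5 CPM, 15 at 2 CPM, 30 with 1 CPM required in each ZH11 library, and 43 to 76 without 1 library. Leaving out a drw1 library gave 74 to 76, since the limit of 3 counts then covered 2 libraries. Of the 46 members, 39 to 46 were chosen again without 1 library and 46 with TMM scaling. Loci in clusters numbered 10 with up to 10 drw1 counts, 9 at 0.5 CPM, 2 with TMM scaling and 0 to 4 without 1 library. Counting only changes of at least 2-fold gave 17.4% lower and 9.78% higher for the nearest tested loci and 14.3% and 11.8% for 5 on each side. The median length was 492 bases for members with 0 drw1 counts and 825.5 to 924 bases without 1 library. With a replicate block, 15505 genes were called, against 16395 without it, with 37.0% of nearest loci lower and 26.1% higher. Deviations of libraries with the same number correlated at -0.12, 0.02 and -0.10 (1 of the 6 had its highest correlation with the library of its own number), so the numbers were not taken as pairs. For the 20 tested neighbours that are named, 211 of 220 alternative values kept direction and side of the threshold. LOC_Os02g55300, near 0 and not called, turned negative with DESeq2 size factors (-0.0195), with DESeq2 (-0.0176), without ZH11 replicate 3 (-0.0317) and without drw1 replicate 2 (-0.0578), in a range of -0.0578 to 0.0429 without 1 library. LOC_Os04g41990 passed the threshold with library totals (0.54), without ZH11 replicate 1 (0.52) and without drw1 replicate 2 (0.57). LOC_Os04g13480 no longer passed it without drw1 replicate 3 (0.24), nor LOC_Os05g48410 without drw1 replicate 2 (0.22), all on the log2 scale. Shares at middle ranks, lengths under other limits and clusters without 1 library were added after seeing the data. The cause was not tested, except where fewer libraries or a stricter limit set the number. Members have 1 to 3 drw1 counts or none, so ratios of single members are imprecise.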

Other observations

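The table holds 301 gene models whose identifiers are not of the form used by the rule. Of these, 22 were at 1 CPM or more in ZH11, and 0 of them met the limits of the members.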
